A study of Bos taurus with 94 samples.

Results

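ENSBTAG00000047297 was the most abundant gene of the head of the epididymis in an atlas of cattle tissues, and it is the 1 gene described here of 24616 in the table. The gene was chosen by its level in that library, where it stood first with 56618 FPKM. FPKM are read fragments corrected for transcript length and for the number mapped in the library. Because of this choice, the levels of the gene are given as a description. The only test leaves the head out, but it includes the body of the epididymis, whose profile resembled the head. The atlas holds 94 RNA sequencing libraries of total RNA from snap frozen tissues of Hereford cattle, all labelled adult, the fetal testis included. The labels name no animal and no treatment, and nearly every tissue is 1 library. The libraries used most are the head (labelled caput), body and tail of the epididymis, the vas deferens, 3 follicle libraries, the bull testis and the male accessory glands (prostate, vesicular gland and bulbourethral gland). The table pairs identifiers with no names, and 0 of the 24616 identifiers matched the gene table used for symbols. The gene is therefore given by its identifier, and its name, position and sequence were not analysed here.

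The epididymis is the coiled duct in which sperm leaving the testis mature and are stored. Its epithelium is divided into segments, and the head and body are known for secreting large amounts of a small number of proteins into the lumen, many of them in 1 segment and dependent on androgens and on factors from the testis. The tail stores sperm and leads into the vas deferens, a duct with a thick wall of smooth muscle. An ovarian follicle is a different structure, an oocyte surrounded by granulosa and theca cells, and shares no such secretory epithelium.

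The closest profile was sought for the libraries used most. Among these, only the follicle has more than 1 library, so for the others the closest profile had to carry another label. The follicle libraries are called replicates 1, 2 and 3 here, numbers that the labels do not give. Over 18031 genes, the profile of follicle replicate 1 had its highest correlation with the epididymis body (Spearman's rho 0.909) and the next with the head (0.882), while its rho with follicle replicates 2 and 3 was 0.769 and 0.745. The library labelled tail of the epididymis had a rho of 0.928 and 0.925 with follicle replicates 2 and 3, but 0.780 with the body and 0.759 with the head. Its closest libraries were those labelled gall bladder (0.931) and diaphragm (0.931), just above follicle replicate 2. Follicle replicates 2 and 3 were closest to each other (0.933), and the library labelled tail was the next closest to each. The head was closest to the body (0.907), and the body to follicle replicate 1 (0.909) and then the head. The bull testis was closest to the head (0.740). The vas deferens was closest to the contralateral isthmus of the oviduct (0.899). Its rho was 0.832 with the body and 0.766 with the head, so a low rho with the head was not particular to the library labelled tail. The prostate was closest to the normal outer eye layer (0.922), the bulbourethral gland to the cancer eye (0.917) and the vesicular gland to subcutaneous fat (0.970). These correlations run across genes, which are not independent replicates, and defining markers of the follicle and the epididymis could not be looked up without names. Whether a library was exchanged was not tested, and all libraries keep their label below.

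In the head, ENSBTAG00000047297 took 6.90% of the library's FPKM. The next gene, ENSBTAG00000033377, stood at 26061 FPKM, and the first exceeded it 2.17-fold. The gene after that, ENSBTAG00000043561, had 22178 FPKM in the head and was abundant in every library (2983 to 75445 FPKM), so of the 3 leading genes the first pair belonged to few tissues and the next one to all of them. The 10 most abundant genes of the head together held 23.8% of its FPKM.

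Along the duct the level was highest in the head, lower in the body and 0 beyond it. It was 56618 FPKM in the head and 7196 FPKM in the body, and the gene was listed at 0 in the library labelled tail and in the vas deferens. In the body it was the gene of rank 12 and held 0.930% of the FPKM. The head exceeded the body 7.87-fold (log2 difference 2.98 on the log2(FPKM + 1) scale). Each segment is 1 library, so this difference has no replicate error. Among 7252 genes that reached 10 FPKM in the head or the body, 3.05% were at least 4-fold higher in the head. The 4-fold limit is on FPKM + 1, here and in the pairs below. A larger difference than this gene's was found for 108. The head library is the one that chose the gene, so nothing is read from that place. In bulk tissue, fewer cells of a type and less RNA per cell cannot be told apart.

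**Figure D1:**
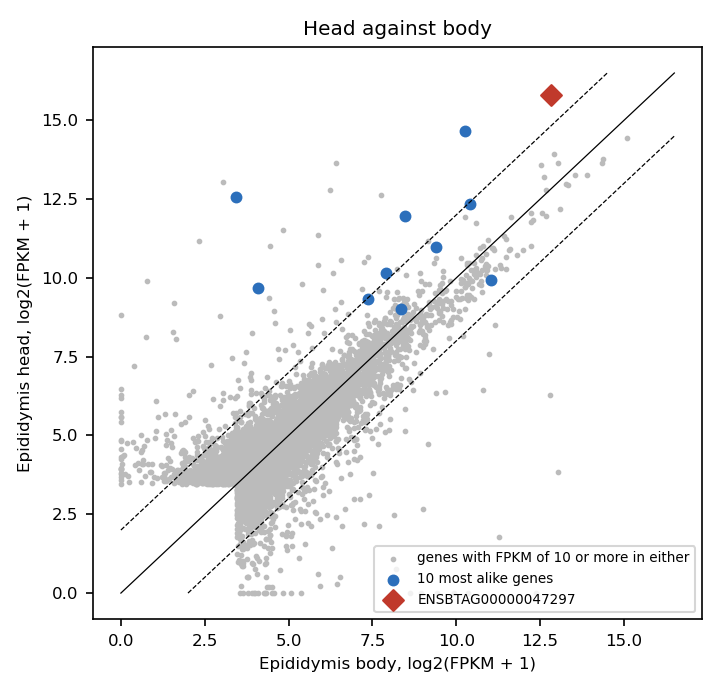
All genes that reached 10 FPKM in the head or the body of the epididymis, as log2(FPKM + 1) in the body (x axis) and the head (y axis); the solid line marks equal levels and the dashed lines a difference of 2. ENSBTAG00000047297 (red) is the highest point of the head at 56618 FPKM. The 10 genes most like it are blue, and their likeness to a gene highest in the head favours a high position on this plot.

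Between the body and the library labelled tail, the gene went from 7196 FPKM to a listed 0. Of 8335 genes tested for this pair, 9.12% were at least 4-fold higher in the body, and 1 had a larger difference on the log2(FPKM + 1) scale. Against a listed 0 the difference restates the level in the body, so nothing is read from that place. Between head and tail the share was 9.59% of 8339 genes. A listed 0 need not mean that no RNA was present, so no fold is given against it. The step from body to tail rests on a library whose profile was closer to other tissues than to the body. Among these were gall bladder, diaphragm and follicle replicates 2 and 3. Without it, the duct series is head, body and vas deferens, with 56618 FPKM, 7196 FPKM and a listed 0.

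The 3 follicle libraries did not agree on this gene. Follicle replicate 1 had 1599 FPKM, replicate 2 had 8.44 FPKM and replicate 3 had 11.5 FPKM. Replicate 1 thus stood 189-fold above replicate 2 and 139-fold above replicate 3. It was the third highest of all libraries, and the other two lay far below the epididymis head and body. In replicate 1 the gene was of rank 57 and held 0.207% of the FPKM. A 4-fold gap was not rare in this pair of libraries, since 11.3% of 7983 genes were at least 4-fold higher in replicate 1 than in replicate 2. A larger difference than this gene's was found for 30. Against replicate 3 the share was 11.6% of 8399 genes, with 36 beyond this gene. The gene was chosen for its level in the head, whose profile replicate 1 resembled, so nothing is read from these places. Follicle replicate 1 differed less from the epididymis body, which stood 4.50-fold above it. In that pair 3.09% of 7064 genes were at least 4-fold higher in the body, and 199 had a larger difference than this gene. The difference of 2.17 on the log2 scale lies near the threshold of 2 and was 1.98 after quantile normalization.

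Testis and accessory glands, the neighbours of the epididymis in the male tract, were low with 1 exception. The gene was listed at 0 in the bull testis and stood at 2.50 FPKM in the fetal testis. It was listed at 0 in the vesicular gland and the bulbourethral gland, but reached 399.9 FPKM in the prostate, the fourth highest level of all. Between body and bull testis, 10.2% of 9324 genes were at least 4-fold higher in the body, and none of them had a larger difference than this gene. Against a listed 0 this place restates the level in the body, and nothing is read from it.

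Across the 94 libraries the gene was listed at 0 in 68 and above 0 in 26. The head held 85.8% of its summed FPKM, the body 10.9% and follicle replicate 1 2.42%. After the prostate came mammary gland fat with 76.1 FPKM, and then a gap. The other 21 libraries above 0 ran from 0.128 FPKM in the pituitary stalk to 15.9 FPKM in the duodenum, with a median of 2.50 FPKM. The duodenum, follicle replicate 3, the normal outer eye layer (11.5 FPKM), the contralateral infundibulum (8.73 FPKM), follicle replicate 2 and the hippocampus (7.56 FPKM) followed each other closely in that order.

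**Figure D2:**
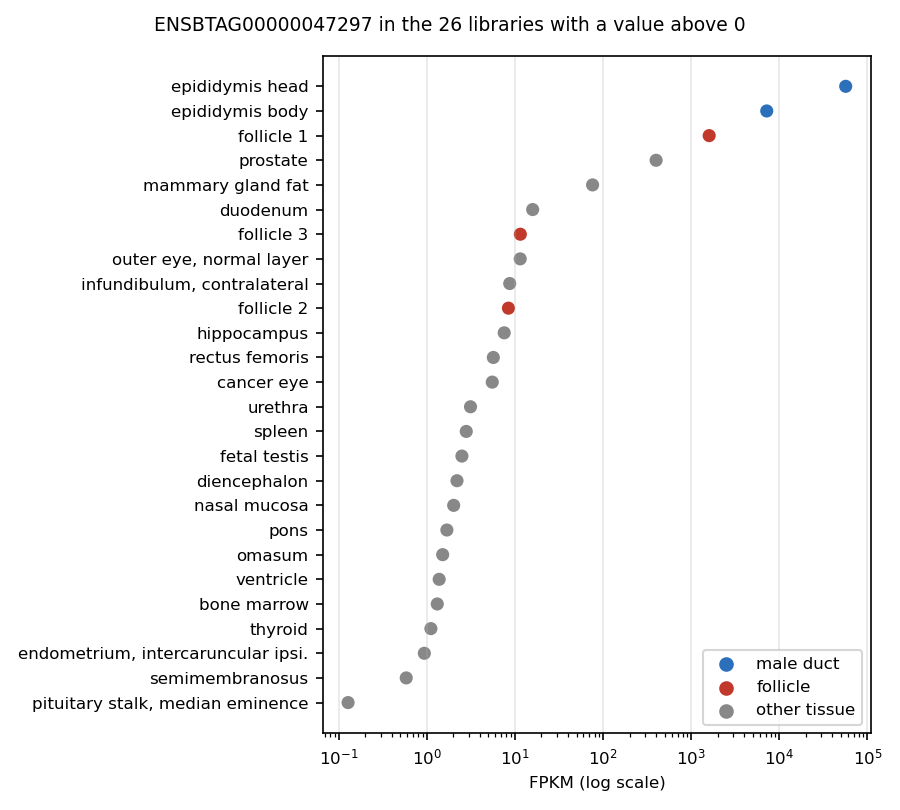
Level of ENSBTAG00000047297 in FPKM on a log axis in each of the 26 libraries with a value above 0, 1 point a library, blue for the male duct, red for follicles and grey for other tissues. The head (56618 FPKM), body (7196), follicle replicate 1 (1599), prostate (399.9) and mammary gland fat (76.1) stand above the remaining libraries, which reach at most 15.9 FPKM.

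Of the 34 anatomical classes into which the labels were grouped, 15 had the gene listed at 0 in all their libraries, 20 in number, among them kidney, liver, both mammary libraries and the tongue. Of the classes of 2 or more libraries with a value above 0, the follicle was the only one with no library at 0. In the intestine 5 of 6 libraries were listed at 0, in the oviduct 5 of 6, in the brain 5 of 8 and in skeletal muscle 9 of 11, where the highest value was 5.69 FPKM in the rectus femoris. The ranges of these classes all began at 0 and overlapped, so their order was not separated beyond the spread of their libraries. The male duct, which holds the head, also ran from 0. Follicle replicates 2 (8.44 FPKM) and 3 (11.5 FPKM) lay below the highest intestine library (15.9 FPKM). The outer eye, cancer eye (5.53 FPKM), fetal testis and thyroid (1.11 FPKM) are single libraries with no spread.

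The 5 libraries with 50 FPKM or more carry neighbouring numbers in their titles. The head is number 163, the body 162, follicle replicate 1 is 161, mammary gland fat 159 and the prostate 157. Between them, the normal outer eye layer (160) had 11.5 FPKM and the vas deferens (158) was listed at 0. The 7 libraries numbered 157 to 163 run from the prostate to the head. That run was drawn around the 5 levels after they had been seen, so that it holds them all was fixed. The highest level among the 87 other libraries was 15.9 FPKM. The library labelled tail is number 294, and follicle replicates 2 and 3 are 295 and 296. The labels do not say what the numbers stand for, and their part in the levels was not tested.

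**Figure D3:**
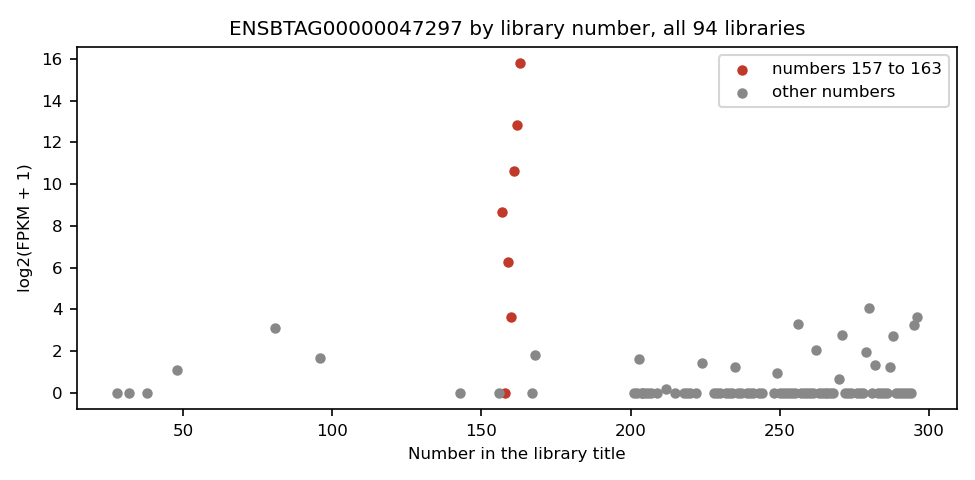
Level of ENSBTAG00000047297 as log2(FPKM + 1) in all 94 libraries against the number in the library title, red for numbers 157 to 163. That run was drawn around the 5 levels of 50 FPKM or more after they had been seen. The vas deferens, number 158, lies at 0 within it.

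The gene was then set beside other genes of the head to see whether they kept the same proportions in these libraries. Taken were the genes with at least 500 FPKM in the head and at most 20 FPKM in each of 80 libraries, leaving out of the limit the other 14 libraries, which are those of ducts, follicles, testes and accessory glands and those numbered 157 to 163. The limits were set after the values had been seen. The head is both the library that chose these genes and the denominator of their percentages, so the values are a description. The limits gave 24 genes, this one and 23 others, of 193 with 500 FPKM or more in the head. In the body the 23 others ranged from 0.0752% to 218% of their head level, with quartiles of 1.03% and 25.8%, and this gene stood at 12.7%. In follicle replicate 1 they ranged from 0.0638% to 176%, with quartiles of 0.241% and 30.4%, and this gene stood at 2.82%. The genes of the head were thus spread over several orders of magnitude in both libraries.

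The prostate differed in this respect. There the 23 others ranged from 0% to 1.59% of their head level, with 3 listed at 0, a median of 0.774% and quartiles of 0.488% and 0.864%, and this gene stood at 0.706%. In the body and in follicle replicate 1 none of the 23 was listed at 0. Within 2-fold of this gene's percentage lay 15 of the 23 in the prostate, against 5 in the body and 0 in follicle replicate 1. The count was 5 in mammary gland fat and 7 in follicle replicate 3. In that follicle library 8 of the 23 were listed at 0 and none reached 10 FPKM. In mammary gland fat this gene stood at 0.134% of its head level, with a median of 0.0482% over the others, of which 11 were listed at 0. Whether material or reads of the head entered the prostate and mammary gland fat libraries was not tested. In the library labelled tail, 20 of the 23 were listed at 0 and none reached 10 FPKM, and in the vas deferens 12 were listed at 0 and 3 reached 10 FPKM. The bull testis held 7 of the 23 at 10 FPKM or more, up to 26.7% of the head level, whereas this gene was listed at 0 there.

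**Figure D4:**
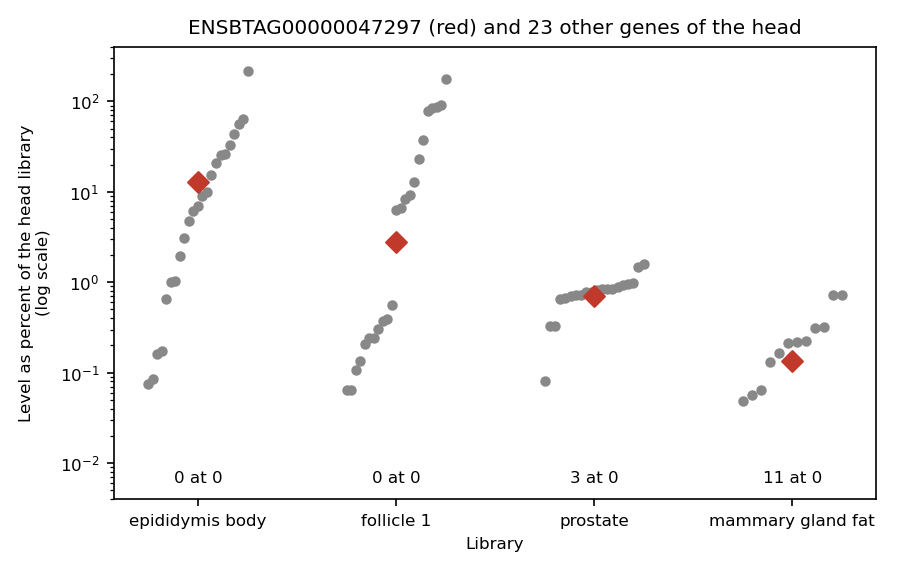
Level as percent of the head library, on a log axis, in 4 libraries for ENSBTAG00000047297 (red diamonds) and for 23 other genes that are abundant in the head and low in most other tissues (grey points, 1 a gene, with the number listed at 0 below). The points spread widely in the body and in follicle replicate 1, and in the prostate 15 of the 23 lie within 2-fold of this gene's 0.706%.

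The genes whose pattern was most like it were ranked by Pearson's correlation of log2(FPKM + 1) over the 94 libraries, given as a description, since the points share a few high libraries. ENSBTAG00000033377, the gene second to it in the head, came first (r = 0.94, Spearman's rho = 0.67). Its level was 26061 FPKM in the head, 1232 in the body, 2396 in follicle replicate 1, 211.8 in the prostate and 57.3 in mammary gland fat, and it was listed at 0 in the tail and the vas deferens. In contrast with the first gene, it was higher in follicle replicate 1 than in the body, and it had 20.5 FPKM in the bull testis. ENSBTAG00000039171 came second (r = 0.93, rho = 0.77), with 3972 FPKM in the head, 357 in the body, 248.9 in follicle replicate 1 and 30.7 in the prostate, and was listed at 0 in the tail, the vas deferens and the bull testis. Both kept the order of head above body, and both were highest in the same 4 libraries as the first gene.

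The 10 most alike genes had r from 0.84 to 0.94. Their rank in the head ran from 2 to 190. All 10 were listed at 0 in the library labelled tail and in the bulbourethral gland, 5 in the vas deferens and 7 in the bull testis. By rank correlation 5 of the 10 remained among the most alike, so the list depends on the measure of likeness. Leaving out the 7 libraries numbered 157 to 163 was an alternative chosen after seeing the data. Over the remaining 87, r ran from -0.05 to 0.74 over the 10, with 0.61 for ENSBTAG00000033377 and 0.74 for ENSBTAG00000039171, the 2 highest.

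**Figure D5:**
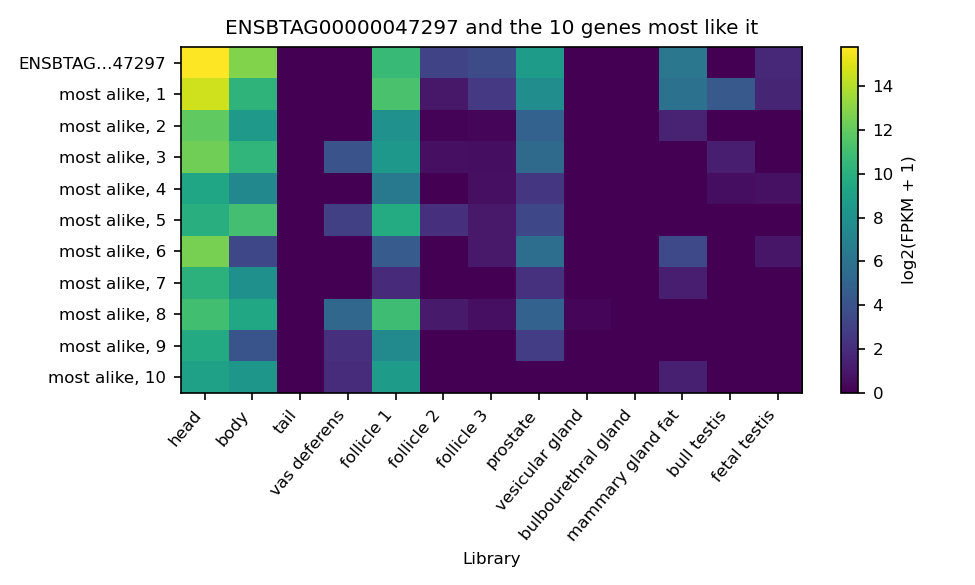
ENSBTAG00000047297 (top row) and the 10 genes with the highest Pearson correlation with it over 94 libraries (in order), as log2(FPKM + 1) in the duct, follicle, accessory gland, fat and testis libraries. The head, body and follicle replicate 1 are high in most rows, and the library labelled tail and the bulbourethral gland are at 0 in the 10 lower rows.

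A test was run on the segments other than the head library that chose the gene. The body is not independent of that choice, since its profile was close to that of the head (Spearman's rho 0.907). The body, the library labelled tail and the vas deferens were compared with the 90 other libraries, the head left out, with limma on log2(FPKM + 1). The question was whether the duct beyond the head carries the gene above other tissues. The mean was 4.27 in the 3 segments and 0.77 elsewhere, a log2 difference of 3.50 ± 1.21 (SE) that did not pass (limma adjusted p = 0.576), with 1 of 3 segments above 0. The test called 32 of 18031 genes, all of them higher in the segments, which is 0.177%. The difference followed single libraries. It was 5.64 without the library labelled tail (limma adjusted p = 0.0309) and 5.64 without the vas deferens (0.0397), which pass. Each of these rests on the body and 1 segment listed at 0. The gene was chosen in the head, whose profile the body resembled, so nothing is read from these passes. Without the body the difference was -0.77 (limma adjusted p = 0.996). Without follicle replicate 1 among the other libraries it was 3.61 and did not pass (limma adjusted p = 0.175). The body was the only segment in this comparison with a level above 0. The segments are different tissues of 1 library each, as are most other libraries, so these p-values measure the spread between tissues.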

How the data were processed

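The deposited values are FPKM per gene and library, per the file headers and name. The tools HISAT2 and StringTie and the build UMD3.1 are listed in the submitters' processing notes. Their versions, the annotation and any filters were not given in the sources. Read depth is unknown, so no counting intervals or floors are given. FPKM totals ran from 585122 to 1062591 per library.

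Libraries were grouped by tissue label. Values were analysed as log2(FPKM + 1). Pairs of single libraries were compared over genes that reached 10 FPKM in either of them. They were called at a difference of 2 on the log2(FPKM + 1) scale, which is 4-fold on FPKM + 1. The limma test (limma 3.58.1 in R 4.3.3, trend, two-sided, Benjamini-Hochberg adjustment over all genes tested) and the correlations used the 18031 genes that reached 1 FPKM in 3 or more libraries, and limma calls needed an adjusted p below 0.05 with a log2 difference of 1 or more. The labels do not say that libraries come from separate animals. Nearly every library is a different tissue, so p-values measure the spread between libraries of different tissues and not between animals. The limma script was checked on simulated, normally distributed values. These do not mimic a gene listed at 0 in most libraries, so the check does not cover the p-values of this gene. Python 3.11.15 with numpy 2.4.6 and pandas 2.3.3 was used. Alternatives were a pseudocount of 0.1, other filters, equal FPKM totals, quantile normalization, rank correlation and libraries left out. Named were this gene, the 2 most alike by correlation and the 2 after it in abundance in the head. The gene and lists were chosen with earlier results of these data known. Marker lists of epididymis, follicle, germ cells and smooth muscle could not be applied, since no identifier matched a symbol.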

Additional observations from a re-analysis of the deposited data

Results flagged for a closer look

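In 6 of the 9 classes of 4 to 10 libraries, 1 library stood apart from the others of its class for ENSBTAG00000047297 by Dixon's test on log2(FPKM + 1). These were the duodenum in the intestine (15.9 FPKM), the contralateral infundibulum in the oviduct (8.73 FPKM), the nasal mucosa in the respiratory class (2.02 FPKM), the omasum in the forestomach (1.52 FPKM), the ipsilateral intercaruncular endometrium in the uterus (0.938 FPKM) and the pituitary stalk in the pituitary and pineal class (0.128 FPKM). In each of them all other libraries were listed at 0, so any value above 0 stands apart, and the usual rate of about 1 in 20 groups marked by chance does not apply to them.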

How the results depend on the processing

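The comparison of the body, tail and vas deferens with other tissues depended on single libraries. Leaving out 1 library at a time moved the log2 difference of ENSBTAG00000047297 from 3.50 to between -0.77 (without the body, below 0) and 5.64 (without the tail, or without the vas deferens), and the number of genes called from 32 to between 6 and 87. The 6 were called without the body, the 87 without the tail, 66 without the vas deferens and 54 without follicle replicate 1. Without the tail and follicle replicate 1 together, an alternative chosen after seeing the data, the difference was 5.75 and 105 genes were called. Both libraries lower the difference by their own levels, so this value supports nothing. A pseudocount of 0.1 gave 20 calls and no filter 51. The cause was not tested. The adjusted p of the gene ran from 0.427 to 0.976 over the other pseudocount, filter and scalings, and was 0.175 without follicle replicate 1. In the pairs, the body exceeded follicle replicate 1 by 1.98 after quantile normalization, below the threshold of 2, and no other pair crossed it. Of the 10 most alike genes, 5 were shared with rank correlation and 6 without the 7 libraries numbered 157 to 163, and 9 or 10 under the other alternatives. Leaving out those 7 libraries was also chosen after seeing the data. Under equal totals the levels became 49031 FPKM in the head, 6607 in the body, 1473 in follicle replicate 1, 306.9 in the prostate and 77.2 in mammary gland fat. Each moved by less than the spread of its class. That spread includes the high library itself, so this check could hardly fail. Read depth is unknown, so low levels and values listed at 0 cannot be given a precision. No paired analysis was possible because the labels name no animal.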
